A study of Mus musculus with 40 samples.

Results

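The pyruvate dehydrogenase complex and the enzymes that switch it off and on were followed in brown adipose tissue (BAT) through 10 of the 20295 genes counted by RNA sequencing. The genes were chosen by name, as parts of the complex, with earlier results of these data known. They encode 4 subunits (Pdha1, Pdhb, Dlat and Pdhx), 4 kinases (Pdk1, Pdk2, Pdk3 and Pdk4) and 2 phosphatases (Pdp1 and Pdp2). All 10 passed the filter on low counts, which kept 13277 genes in all.

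The complex turns pyruvate into acetyl-CoA inside mitochondria and so decides how much carbon from glucose enters the citric acid cycle or, in fat tissue, is passed on to fatty acid synthesis. Pdha1 and Pdhb encode the alpha and beta chains of its first enzyme, Dlat the acetyltransferase at its core, and Pdhx the protein that anchors the last enzyme to that core. The kinases phosphorylate the alpha chain and switch the complex off, and the phosphatases take the phosphate away again. Brown adipocytes burn both fatty acids and glucose to make heat, and Pdk4 is known across tissues as the kinase gene that fasting and fatty acids raise. Only transcripts were measured here, not phosphorylation or enzyme activity.

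The 40 mice were male, lived at thermoneutrality (29 °C) and formed 8 groups of 5. In the first cohort, C-3BO mice carried a Gpr3 transgene in the Rosa26 locus, driven by the CAG promoter and released from a stop cassette by Ucp1-Cre, so that the constitutively active receptor GPR3 was overexpressed in cells that use the Ucp1 promoter. Their control littermates carried the transgene without Cre or Cre without the transgene. Both genotypes were kept on chow or moved for 7 days to a high-fat diet (HFD) with 60 kcal% fat, and the mice of this diet challenge were 13 to 19 weeks old. In the second cohort, control littermates of another Gpr3 line, labelled wildtype and 15 weeks old, were injected every day for 9 days with the β3-adrenergic agonist CL-316,243 (CL, 1 mg/kg) or saline (10 µL/g). The HFD mice among them changed diet after 2 days of injections. The study collected tissue the day after the last injection, so that lasting rather than immediate effects of CL would be seen. The question for these genes was whether ligand-free and ligand-driven receptor activation, and dietary fat, moved the complex and its switches.

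Gpr3 was measured at 266 to 463 CPM (counts scaled to a common library total) in chow C-3BO and 688 to 918 in HFD C-3BO, against at most 0.743 CPM in the control mice of that cohort. A single chow CL mouse (replicate 3) had 9.15 CPM of Gpr3. Ucp1 was raised by all 4 treatment contrasts, with log2 fold changes from 1.52 to 2.38 and edgeR adjusted p from 3.57e-08 to 2.69e-05, although a single chow CL mouse (replicate 5) lay at 1645 CPM, within the chow saline range of 1267 to 1865. The 8 brown adipocyte markers were counted in every mouse. Library totals ran from 849126 to 15260516 counts. The 10 markers of skeletal muscle summed to 730.1 to 9485 CPM in chow control, 370.3 to 3608 in chow C-3BO, 5.25 to 203 in HFD control, 5.63 to 70.7 in HFD C-3BO, 10.4 to 2431 in chow saline, 11.1 to 133 in chow CL, 19.05 to 1965 in HFD saline and 29.1 to 644 in HFD CL, with no marker at 0 throughout a group. The 10 liver markers summed to 50.7 to 530.0 CPM in HFD C-3BO, where replicates 4 and 5 were the highest. They summed to 158 to 406 CPM in HFD saline and HFD CL together, against 56.1 to 341 in the other groups. Trf supplied most of the sum in those other groups, averaging 72.1 to 228 CPM. Alb was 0 to 1.62 CPM in those groups, against 62.1 to 170 in HFD saline and 97.2 to 191 in HFD CL. It ran from 0.564 to 294 CPM in HFD C-3BO, with a median of 1.59. All other liver markers but Apoc3 and Trf also averaged higher in HFD C-3BO, HFD saline and HFD CL than elsewhere. Trf averaged 100 CPM in HFD C-3BO, 149 in HFD saline and 113 in HFD CL. The epididymal transcripts Lcn8, Lcn9 and Defb48 were counted in no library outside HFD C-3BO, HFD saline and HFD CL. The 4 epididymal markers summed to at most 55.6, 24.9 and 40.9 CPM in these groups. In HFD C-3BO the lowest and the median sum were 0, while every HFD saline library had at least 8.02 CPM and every HFD CL library at least 16.7. The 5 measured macrophage markers summed to 222 to 577 CPM in HFD saline against 65.7 to 301 in the other groups, and 4 endothelial markers to 1072 to 1744 CPM in the HFD groups against 438 to 1019.7 in the chow groups, with none at 0 in a group. The part of these transcripts in the results below was not tested except where a value is given. In bulk tissue, fewer cells of a type and less RNA per cell cannot be told apart.

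**Figure D1:**
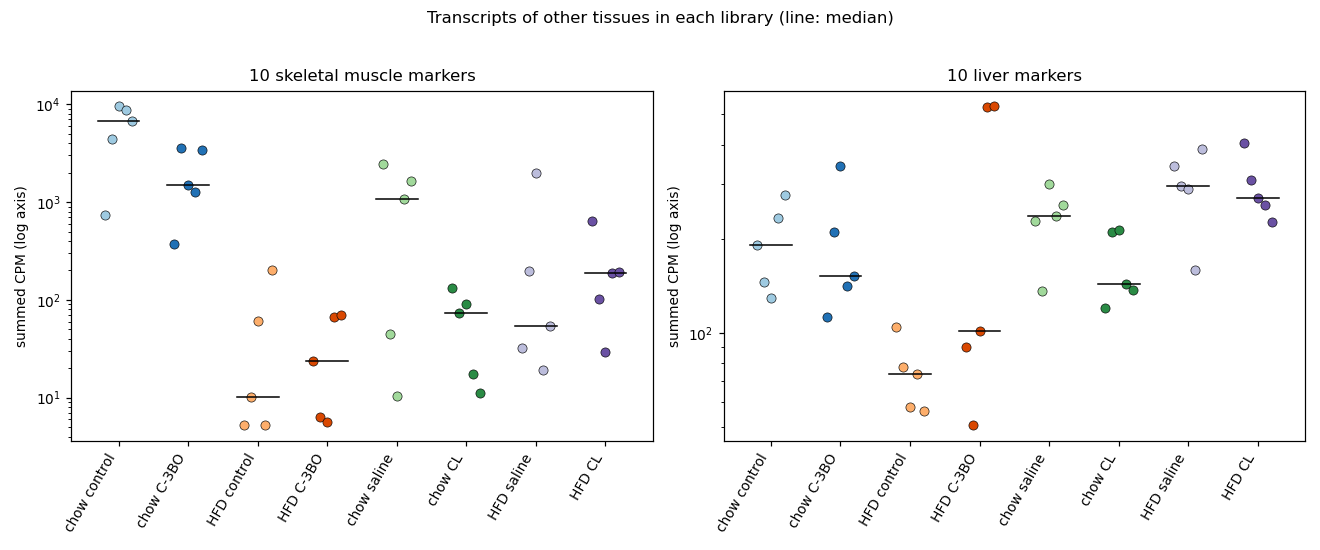
Summed CPM of 10 skeletal muscle markers (left) and 10 liver markers (right) on log axes, 1 point per mouse in the 8 groups, with a line at the median. Muscle transcripts were highest in chow control (median 6751 CPM) and chow C-3BO (median 1508 CPM), and liver transcripts in HFD C-3BO replicates 4 and 5 (527 and 530.0 CPM).

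The 10 genes differed widely in level, so they were compared per kilobase of counted exon. In chow control mice, Pdha1 was the highest of the subunits at 1171 ± 119.5 CPM per kilobase (SD, n = 5), followed by Pdhb at 508 ± 173, Dlat at 299 ± 44.8 and Pdhx at 69.5 ± 15.2. Among the kinases, Pdk4 came first at 457 ± 209 CPM per kilobase and Pdk2 second at 219 ± 20.5. Pdk1 reached 47.7 ± 7.81 CPM per kilobase, and Pdk3 only 0.771 ± 0.372. Both phosphatases were low, Pdp2 at 15.8 ± 3.32 and Pdp1 at 5.10 ± 0.871 CPM per kilobase. Pdk4 and Pdk2 thus made up nearly all kinase transcripts, while Pdk3 rested on 1 to 28 counts per library.

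In the mm9 build, with the first base numbered 1, the subunit genes lay at chrX:156560151-156576268 (Pdha1), chr14:8998505-9005506 (Pdhb), chr9:50442738-50467885 (Dlat) and chr2:102861213-102913670 (Pdhx). The kinase genes lay at chr2:71711281-71741915 (Pdk1), chr11:94887572-94902685 (Pdk2), chrX:91009955-91077434 (Pdk3) and chr6:5433351-5446278 (Pdk4), and the phosphatase genes at chr4:11885332-11893597 (Pdp1) and chr8:107115368-107120749 (Pdp2). The values are sums over the exons of each gene. Pdha1 shares 603 exon bases with Map3k15 on the opposite strand, and whether the counting used strand is not stated. Map3k15 itself had at most 0.336% of the counts of Pdha1 in any library.

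The 250 bases before the start of 4 genes are printed, because these genes moved in different ways: Pdhx rose in all 4 treatment contrasts, Pdk1 rose in the same contrasts and fell on HFD, Pdk4 supplied most of the kinase transcripts, and Pdp2 rose in C-3BO mice on both diets. They were read from the mm9 genome in the direction of transcription, at chr2:102913671-102913920 on the minus strand (Pdhx), chr2:71711031-71711280 on the plus strand (Pdk1), chr6:5446279-5446528 on the minus strand (Pdk4) and chr8:107115118-107115367 on the plus strand (Pdp2). Capitals mark any of the searched motifs on either strand.
Pdhx: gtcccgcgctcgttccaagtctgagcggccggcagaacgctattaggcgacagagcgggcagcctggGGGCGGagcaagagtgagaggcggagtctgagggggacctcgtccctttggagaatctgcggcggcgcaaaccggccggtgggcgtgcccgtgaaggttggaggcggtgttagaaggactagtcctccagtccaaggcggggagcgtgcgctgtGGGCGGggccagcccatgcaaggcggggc
Pdk1: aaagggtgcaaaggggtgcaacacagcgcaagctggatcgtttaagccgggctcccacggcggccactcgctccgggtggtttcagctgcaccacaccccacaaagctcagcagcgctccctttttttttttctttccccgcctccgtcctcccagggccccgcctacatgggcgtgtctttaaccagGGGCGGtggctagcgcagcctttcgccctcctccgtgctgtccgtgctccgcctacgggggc
Pdk4: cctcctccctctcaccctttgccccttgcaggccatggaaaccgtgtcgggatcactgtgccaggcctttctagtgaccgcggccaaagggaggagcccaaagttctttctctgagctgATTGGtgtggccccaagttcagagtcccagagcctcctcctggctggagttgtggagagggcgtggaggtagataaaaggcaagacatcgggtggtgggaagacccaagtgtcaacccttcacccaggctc
Pdp2: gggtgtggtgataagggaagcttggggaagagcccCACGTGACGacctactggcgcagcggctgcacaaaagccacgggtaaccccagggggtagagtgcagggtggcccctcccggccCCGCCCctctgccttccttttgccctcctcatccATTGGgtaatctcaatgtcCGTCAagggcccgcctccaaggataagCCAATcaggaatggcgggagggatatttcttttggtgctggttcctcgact
The searched motifs were the cAMP response element TGACGTCA and its shorter form TGACG, the GC box GGGCGG, the CCAAT box, the E-box CACGTG, the nuclear receptor sequence AGGTCA, its direct repeat spaced by 1 base, the estrogen-related receptor element TCAAGGTCA and the TATAAA box. They overlap in part, since TGACG lies within TGACGTCA and AGGTCA within TCAAGGTCA and the direct repeat. The GC box stood in 7 of the 10 windows, against 45.6% of the windows of all 20295 genes, and the CCAAT box in 6 of 10, against 35.5%. TGACG stood in 5 windows (Pdha1, Pdhb, Dlat, Pdp1 and Pdp2), against 21.2% of all, and the complete TGACGTCA only in that of Pdp1, against 2.14%. CACGTG was found before Pdk2 and Pdp2 (6.92% of all windows) and AGGTCA before Pdp1 (12% of all windows). The direct repeat (0.0542% of all windows), TCAAGGTCA (0.305%) and TATAAA (11.8%) had no match in the 10 windows. In the printed windows, Pdhx held 2 GC boxes and Pdk1 a single one, Pdk4 held a CCAAT box read on the opposite strand, and Pdp2 held all of the short cAMP element, the E-box, the GC box and the CCAAT box, the first overlapping the second at 1 place. The bases nearest the start in the windows of Pdha1, Pdk3 and Pdp1 were not found among the RefSeq promoters of GRCm38. The starts used for these 3 may therefore differ from those of RefSeq, and the matches before Pdha1, Pdk3 and Pdp1 rest on them. A match describes letters only. GC content was 58.8% (Pdk4) to 69.2% (Pdk3) in the 10 windows, with a median of 56.4% over all windows.

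CL and C-3BO changed 5 to 8 of the 10 genes, nearly all of them upward, and HFD changed 2 to 6, nearly all of them downward. With CL on chow, 5 of 10 genes were higher and none was lower (edgeR adjusted p under 0.05), against 9.16% of all tested genes called higher and 6.13% called lower. With CL on HFD, 7 were higher and 1 was lower, against 12.7% and 10.8%. In C-3BO mice on chow, 4 were higher and 1 was lower, against 15.8% and 15.9%, and in C-3BO mice on HFD 5 were higher and 1 was lower, against 19.3% and 15.5%. The median log2 fold change of the 10 genes was 0.28, 0.35, 0.30 and 0.43 in these contrasts in turn, and that of all tested genes lay between -0.03 and -0.01. On HFD against chow, 6 genes were lower in control mice and none was higher (17.5% of all tested genes were lower and 15.4% higher). In C-3BO mice 3 were lower and none was higher (12.2% and 13.5%), in saline mice 4 were lower and 1 was higher (8.04% and 7.45%), and in CL mice 2 were lower and none was higher (12.7% and 10.9%). The median over the 10 genes was -0.43, -0.30, -0.36 and -0.28 in these diet contrasts, against -0.01 to 0.03 for all tested genes. Contrasts that involve the same group share its mice. Without chow CL replicate 5, the mouse with Ucp1 in the saline range, the call of Pdhb with CL on chow was lost (0.53, adjusted p = 0.0655) and the other 4 remained. Scaling to library totals, without TMM factors, shifted the median of all genes by -0.20 to -0.14 in the treatment contrasts and by 0.15 to 0.18 in the diet contrasts, and the values given here are relative to the TMM scale. The split of all calls moved with it, from 49.8% to 59.9% higher among the calls of the treatment contrasts on the TMM scale to 20.2% to 30.1% under library totals, and from 46.1% to 52.6% higher in the diet contrasts to 71.2% to 84.8%. No called change of the 10 genes turned direction under either scaling alternative.

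**Figure D2:**
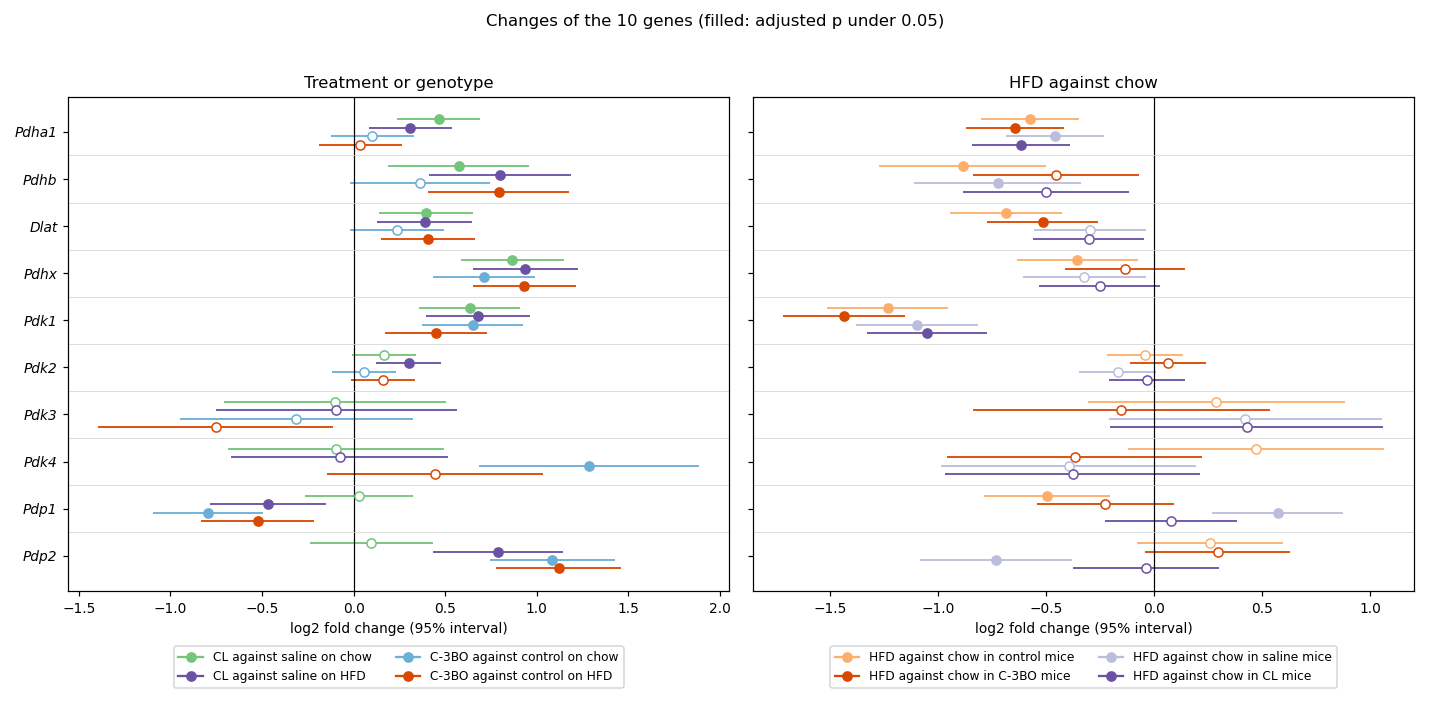
Log2 fold change (horizontal axis) with its 95% interval for each of the 10 genes in the 4 treatment or genotype contrasts (left) and the 4 diet contrasts (right), with filled points where the edgeR adjusted p is under 0.05. Pdhx and Pdk1 lie to the right of 0 in all treatment contrasts, and Pdk1 lies left of -1 in all diet contrasts.

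Pdhx, the anchor protein of the complex, rose in every treatment contrast. Its level was 143, 174, 241, 166 and 153 CPM in chow control and 273, 271, 335, 268 and 290.0 CPM in chow C-3BO (replicates 1 to 5). On HFD it was 103, 104, 140.2, 209 and 128 CPM in controls and 259, 242, 243, 288 and 274 CPM in C-3BO mice. All C-3BO mice were above all their controls on both diets, by a log2 fold change of 0.71 ± 0.14 (SE) on chow and 0.93 ± 0.14 on HFD (edgeR adjusted p = 0.000133 and 2.01e-06). The injected mice had 169, 125, 166, 186 and 148 CPM with saline and 326, 331, 256, 281 and 253 CPM with CL on chow. On HFD they had 117, 126, 119.9, 120.3 and 149.7 CPM with saline and 256, 259.6, 232, 237 and 229 CPM with CL. Again no saline mouse reached a CL mouse, and Pdhx was 1.82-fold higher with CL on chow and 1.91-fold higher on HFD (edgeR adjusted p = 2.94e-05 and 5.67e-06). These 4 calls were kept under every alternative run. Of the diet contrasts only that in control mice passed the test for Pdhx, with a log2 fold change of -0.36 ± 0.14 and overlapping groups (edgeR adjusted p = 0.0431). That call was lost without any 1 of 7 libraries, which were chow control replicates 2, 3 and 4 and HFD control replicates 1, 2, 3 and 5 (adjusted p from 0.0514 to 0.237), and with the muscle markers as a covariate (-0.19, adjusted p = 0.587).

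The other 3 subunits rose in fewer treatment contrasts, Pdhb and Dlat in 3 of 4 and Pdha1 in 2 of 4. Pdhb, the beta chain, was 309, 331, 369, 663 and 369.7 CPM in HFD control and 668, 669, 675, 839 and 681 CPM in HFD C-3BO, with every C-3BO mouse above every control and replicate 4 the highest in each group. The log2 fold change was 0.79 ± 0.19 (edgeR adjusted p = 0.0013). On chow Pdhb was 755 ± 257 CPM (mean ± SD, n = 5) in controls and 970.0 ± 131 CPM in C-3BO mice, a log2 difference of 0.36 (95% interval -0.02 to 0.75) that did not pass the test (edgeR adjusted p = 0.144) unless chow control replicate 3 was left out (0.61, adjusted p = 0.0117). In the injected mice Pdhb was 711, 424, 793, 938 and 567 CPM with saline and 1019, 1028, 952, 977 and 1132 CPM with CL on chow, and the groups did not overlap. It was 1.49-fold higher with CL on chow and 1.74-fold higher on HFD (edgeR adjusted p = 0.0349 and 0.00223). The call on chow was lost without any 1 of 8 libraries, which were all 5 of CL and saline replicates 1, 2 and 5 (adjusted p from 0.0507 to 0.143).

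Dlat, the acetyltransferase core, moved with Pdhb. It was 624, 669, 712, 1019 and 723 CPM in HFD control and 971, 906, 933, 1138 and 1016 CPM in HFD C-3BO, where HFD control replicate 4 lay among the C-3BO mice. The rise was 0.41 ± 0.13 on the log2 scale (edgeR adjusted p = 0.0119), and it was not called under library totals (0.25, adjusted p = 0.0515), without HFD control replicate 1 (0.33, adjusted p = 0.0573) or without the 2 HFD C-3BO libraries with low totals, replicates 4 and 5 (0.32, adjusted p = 0.104). With CL it rose by 0.40 ± 0.13 on chow and 0.39 ± 0.13 on HFD (edgeR adjusted p = 0.0296 and 0.0239). Each of these 2 calls was lost without any 1 of 5 libraries, on chow without saline replicate 2 or 5 or CL replicate 1, 2 or 4 (adjusted p from 0.0753 to 0.131) and on HFD without saline replicate 2, 3 or 4 or CL replicate 1 or 3 (adjusted p from 0.0565 to 0.0743). In chow C-3BO the difference was 0.24 (95% interval -0.02 to 0.49, edgeR adjusted p = 0.156).

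Pdha1, the chain that the kinases phosphorylate, responded to CL but was not called in C-3BO mice. On chow it was 2225, 1670.3, 2204, 2633 and 2508 CPM with saline and 3294, 2954, 3041, 3182 and 3031 CPM with CL, without overlap, and 1.38-fold higher with CL (edgeR adjusted p = 0.00371). On HFD it was 1594, 1350.0, 1623, 1492 and 2097 CPM with saline and 2110.0, 1929.7, 2211, 2142 and 1719 CPM with CL. These groups overlapped, and the rise of 0.31 ± 0.11 (edgeR adjusted p = 0.0406) was lost without any 1 of 8 libraries, replicates 1 to 4 of either group (adjusted p from 0.0501 to 0.151). The C-3BO differences were 0.10 on chow (95% interval -0.12 to 0.33) and 0.04 on HFD (95% interval -0.19 to 0.26), with edgeR adjusted p of 0.512 and 0.834. Whether CL and C-3BO differed for Pdha1 was tested directly, and the difference of the effects was -0.36 on chow (95% interval -0.68 to -0.04, edgeR adjusted p = 0.178).

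HFD lowered the catalytic subunits. Pdha1 fell in all 4 diet contrasts, with log2 fold changes of -0.58 ± 0.11 in control mice, -0.65 ± 0.11 in C-3BO, -0.46 ± 0.11 in saline and -0.62 ± 0.11 in CL mice (edgeR adjusted p from 5.27e-05 to 0.0043). Chow and HFD groups did not overlap in 3 of these contrasts, the saline mice being the exception, and their call was lost when only the libraries of that contrast were fitted (-0.45, adjusted p = 0.0581). Dlat fell in control and C-3BO mice (-0.69 and -0.52, edgeR adjusted p = 6.13e-05 and 0.00259) and Pdhb in control and saline mice (-0.89 and -0.72, edgeR adjusted p = 0.000393 and 0.00831). In the contrasts that did not pass, Dlat differed by -0.30 in saline and -0.30 in CL mice, and Pdhb by -0.46 in C-3BO and -0.50 in CL mice, with 95% intervals below 0. The Pdhb fall in C-3BO mice was called in the libraries of that contrast alone (-0.48, adjusted p = 0.00533) and without HFD C-3BO replicate 4 (-0.55, adjusted p = 0.0461). Among injected mice, the HFD libraries held epididymal transcripts, at least 62.1 CPM of Alb and totals of 849126 to 7284129 counts. The chow libraries held no Lcn8, Lcn9 or Defb48, at most 1.01 CPM of Alb and totals of 7954684 to 15260516 counts. Diet and these properties cannot be told apart in the diet contrasts of injected mice. In the first cohort, Pdha1 and Dlat still fell on HFD in C-3BO mice without replicates 4 and 5. The muscle marker sums of this cohort did not overlap between the diets. They were 730.1 to 9485 CPM in chow control against 5.25 to 203 in HFD control. In C-3BO mice they were 370.3 to 3608 CPM on chow against 5.63 to 70.7 on HFD. The called falls of Pdha1, Dlat and Pdhb in this cohort were kept under every alternative run, the muscle covariate included.

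**Figure D3:**
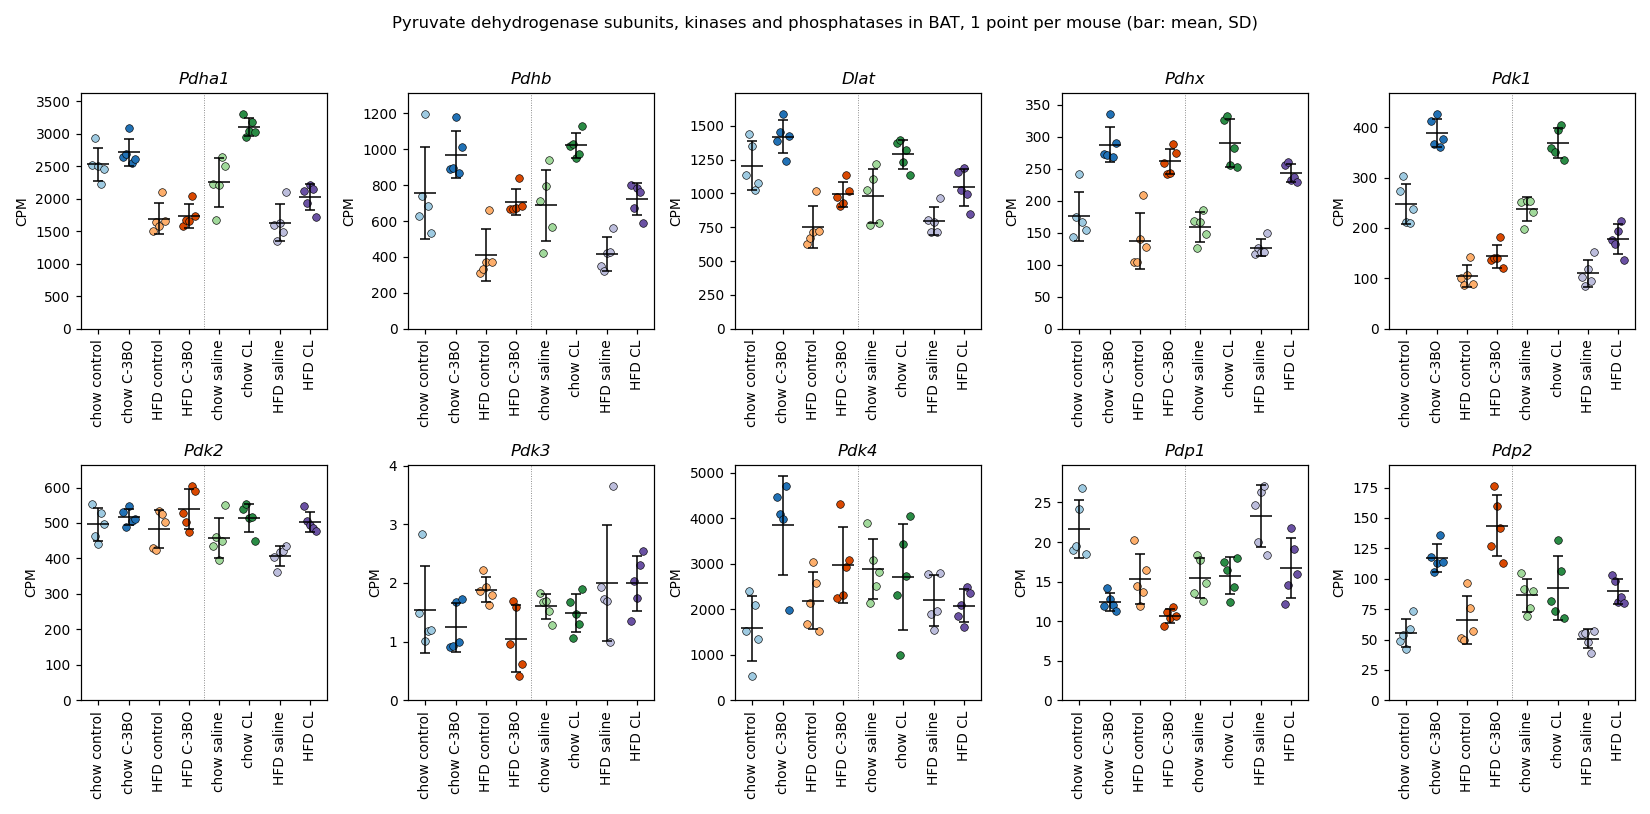
CPM of the 10 genes (1 panel each, axes from 0), 1 point per mouse in the 8 groups, with mean and SD. The panel of Pdk1 shows the first cohort's chow groups at 210 to 426 CPM above its HFD groups at 87.0 to 182 CPM, and those of Pdp1 and Pdp2 show opposite orders of the C-3BO and control groups.

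Pdk1 was the kinase gene called in all 4 diet contrasts and all 4 treatment contrasts. In the first cohort it was 273, 303, 212, 210.1 and 238.2 CPM in chow control and 412, 367, 426, 361 and 377 CPM in chow C-3BO, against 101, 87.0, 107, 142 and 88.6 CPM in HFD control and 136, 141, 139.6, 182 and 119.8 CPM in HFD C-3BO. Every chow mouse was above every HFD mouse of either genotype. The injected mice had 252, 198, 254, 253 and 232 CPM (chow saline), 359, 351, 394, 405 and 335 CPM (chow CL), 102, 84.5, 118, 94.2 and 153 CPM (HFD saline) and 176, 167, 195, 215 and 136 CPM (HFD CL). Within saline and within CL mice, the diets again did not overlap. On HFD Pdk1 was 2.35-fold lower in control, 2.71-fold lower in C-3BO, 2.14-fold lower in saline and 2.08-fold lower in CL mice (edgeR adjusted p from 1.34e-09 to 1.77e-06). CL raised it by 0.63 ± 0.14 on chow and 0.68 ± 0.14 on HFD, and C-3BO by 0.65 ± 0.14 on chow and 0.45 ± 0.14 on HFD (log2, edgeR adjusted p from 0.000327 to 0.00977). The groups were separate on chow and overlapped on HFD, where the C-3BO call was lost without HFD C-3BO replicate 4 (0.35, adjusted p = 0.06). The fall on HFD was kept under every alternative run.

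Pdk4, the most abundant kinase transcript, was the only kinase with a rise of more than 2-fold. It was 1526, 2405, 538, 2085 and 1336 CPM in chow control and 4463, 4088, 3984, 4705 and 1978 CPM in chow C-3BO. Of the C-3BO mice 4 were above all controls, and replicate 5 lay inside the control range. Pdk4 was 2.44-fold higher in chow C-3BO (log2 1.28 ± 0.30, edgeR adjusted p = 0.00099), a call kept under every alternative run, the muscle covariate included. On HFD it was 1682, 2127, 3029, 2581 and 1512 CPM in controls and 2241, 4307, 2320.1, 2929 and 3078 CPM in C-3BO mice, with overlap, and the difference of 0.44 (95% interval -0.15 to 1.04) did not pass the test (edgeR adjusted p = 0.244). Subtracting the C-3BO effect on chow from that on HFD gave -0.84 (95% interval -1.68 to -0.0036, edgeR adjusted p = 0.324). CL left no called change in Pdk4, with 3902, 2142, 3072, 2513 and 2818 CPM in chow saline and 2313, 988, 3444, 2732 and 4043 CPM in chow CL. The log2 difference was -0.10 (95% interval -0.69 to 0.49) on chow and -0.08 (95% interval -0.67 to 0.51) on HFD. Across the 8 groups the mean ran from 1578 CPM in chow control to 3844 in chow C-3BO, and each group overlapped the next in this order.

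Pdk2 varied least of the kinases, from 407 ± 28.7 CPM in HFD saline to 539.8 ± 56.3 CPM in HFD C-3BO. It passed the test in 1 contrast. On HFD it was 403, 360.4, 418, 421 and 435 CPM with saline and 548, 505, 495, 485 and 476.5 CPM with CL, without overlap, a rise of 0.30 ± 0.09 (log2, edgeR adjusted p = 0.0108) that was lost without HFD saline replicate 2 (0.24, adjusted p = 0.0529) and under scaling by library totals (0.15, adjusted p = 0.161). In the other 7 contrasts of one group with another its log2 fold change was between -0.17 and 0.17. Pdk3 was at 1.05 to 2.00 CPM in the group means, passed no test, and had 95% intervals as wide as -1.39 to -0.11 (C-3BO against control on HFD, edgeR adjusted p = 0.0617). A count floor of 3 corresponds to 0.206 to 3.01 CPM in these libraries, a range that takes in every group mean of Pdk3. The upper end comes from HFD saline replicate 4 alone, with 849126 counts, and every other library had at least 3391730. The difference in C-3BO mice on HFD was called under library totals (-0.92, adjusted p = 0.0197) and without HFD C-3BO replicate 2 or 3 (adjusted p = 0.0271 and 0.0365).

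Pdk4 held the largest share of kinase transcripts in each group mean. Per kilobase, it made up 59.985% ± 12.6 of the 4 kinases in chow control and 77.4% ± 6.71 in chow C-3BO (SD, n = 5), and Pdk2 32.9% ± 10.7 and 17.0% ± 5.07. Pdk1 made up 7.06% ± 2.14 in chow control and 2.38% ± 0.421 in HFD control. The kinases summed to 725 ± 221 CPM per kilobase in chow control, 1417 ± 315 in chow C-3BO, 868 ± 199 in HFD control and 1128 ± 242 in HFD C-3BO. In the injected mice they summed to 1086 ± 190 with saline and 1082 ± 323 with CL on chow, and to 838 ± 170 with saline and 859.6 ± 98.1 with CL on HFD. Set against Pdha1 per kilobase, this was 0.622 ± 0.19 kinase transcripts per Pdha1 transcript in chow control, 1.13 ± 0.268 in chow C-3BO, 1.11 ± 0.256 in HFD control and 1.41 ± 0.317 in HFD C-3BO. In the injected mice the mean ratio was lower with CL than with saline, at 0.754 ± 0.231 against 1.06 ± 0.198 on chow and 0.929 ± 0.169 against 1.11 ± 0.174 on HFD. The CL and saline mice overlapped on chow (0.438 to 1.02 against 0.800 to 1.33) and on HFD (0.704 to 1.15 against 0.873 to 1.36). The values are descriptions of transcript numbers with no test.

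**Figure D4:**
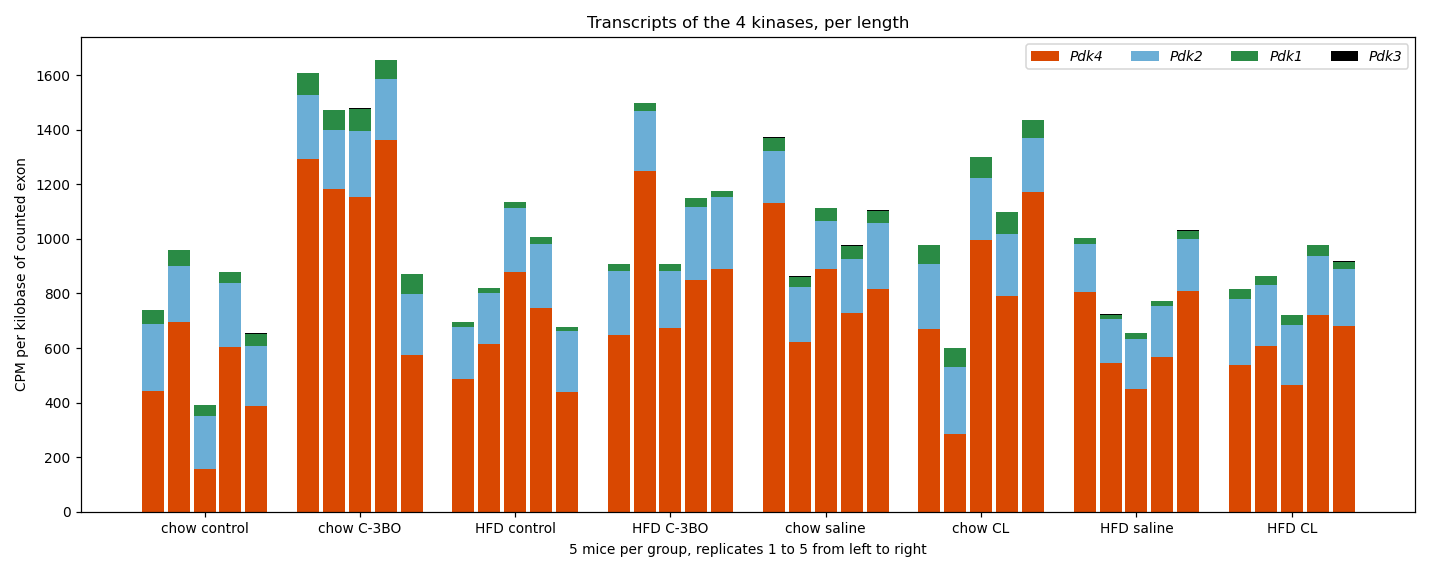
CPM per kilobase of counted exon (vertical axis) of the 4 kinase genes stacked for each of the 40 mice, 5 per group. Pdk4 fills most of nearly every bar and varies most between mice, Pdk2 is nearly level, Pdk1 is thinner in the HFD groups, and Pdk3 is barely visible.

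The phosphatase genes moved in opposite directions in C-3BO mice. Pdp2 was 49.1, 54.1, 42.2, 58.6 and 73.1 CPM in chow control and 118, 106, 113, 136 and 114 CPM in chow C-3BO, and 51.5, 49.3, 96.6, 75.9 and 57.1 CPM in HFD control and 127, 176, 159.9, 142 and 113 CPM in HFD C-3BO. No control mouse reached a C-3BO mouse on either diet. The rise was 2.12-fold on chow and 2.17-fold on HFD (edgeR adjusted p = 5.80e-06 and 2.17e-06). Pdp1 was 19, 19.5, 24.2, 26.8 and 18.5 CPM in chow control and 11.9, 14.2, 12.8, 12.1 and 11.3 CPM in chow C-3BO, and 20.2, 14.4, 11.95, 13.7 and 16.5 CPM in HFD control and 9.39, 11.2, 10.4, 11.8 and 10.6 CPM in HFD C-3BO. All C-3BO mice were below all controls on the same diet. Pdp1 was 1.73-fold lower on chow and 1.44-fold lower on HFD (edgeR adjusted p = 8.29e-05 and 0.00707). These 4 calls were kept under every alternative run.

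With CL, both phosphatase genes were called on HFD and neither on chow. On HFD Pdp2 was 54.8, 55.1, 47.9, 39.1 and 57.3 CPM with saline and 103, 98.3, 81.1, 84.98 and 80.3 CPM with CL, without overlap, and Pdp1 was 24.7, 19.99, 26.3, 27.1 and 18.4 CPM with saline and 12.1, 14.6, 21.8, 19.1 and 16.0 CPM with CL, with overlap. Pdp2 rose by 0.79 ± 0.18 and Pdp1 changed by -0.47 ± 0.16 on the log2 scale (edgeR adjusted p = 0.000975 and 0.0257). The Pdp1 call was lost without any 1 of HFD saline replicates 1 and 3 and HFD CL replicates 1 and 2 (adjusted p from 0.0559 to 0.108). On chow the CL differences were 0.10 for Pdp2 and 0.03 for Pdp1 (95% intervals -0.24 to 0.43 and -0.27 to 0.32). The CL effect on HFD minus that on chow was 0.69 for Pdp2 (95% interval 0.21 to 1.18) and -0.50 for Pdp1 (95% interval -0.93 to -0.06), and neither passed the test (edgeR adjusted p = 0.348 and 0.463). Between the diets, Pdp2 was lower (-0.73) and Pdp1 higher (0.57) in HFD saline than in chow saline, with no overlap of groups, while in control mice Pdp1 was lower on HFD (-0.50) and Pdp2 differed by 0.26 (edgeR adjusted p = 0.00358, 0.00831, 0.0067 and 0.247 in turn). In C-3BO and CL mice neither was called (Pdp1 -0.23 and 0.08, Pdp2 0.29 and -0.04), although Pdp2 in C-3BO mice was under library totals (0.47, adjusted p = 0.0253). HFD saline also held the highest macrophage markers, whose part here was not tested. The fall of Pdp1 in control mice was not called under scaling by library totals (-0.34, adjusted p = 0.0902).

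No gene of the 10 passed the test for a difference between the diets in what C-3BO or CL did. The difference of the C-3BO effects passed the edgeR test for none of the 10 genes (1 at an unadjusted p under 0.05, none with DESeq2), against 2.08% of all tested genes, and that of the CL effects for none (2 at an unadjusted p under 0.05, none with DESeq2), against 0.0151%. C-3BO and CL were then compared with each other. On chow their effects differed for 3 of 10 genes, against 6.24% of all tested genes, and on HFD for none (none at an unadjusted p under 0.05 and none with DESeq2), against 1.8%. The 3 genes were Pdk4 (C-3BO effect minus CL effect 1.38 ± 0.41, edgeR adjusted p = 0.0383), Pdp2 (0.99 ± 0.24, 0.00838) and Pdp1 (-0.82 ± 0.21, 0.0131). The comparison groups of the cohorts, chow control and chow saline, themselves had different means, a difference that was not tested. Pdk4 averaged 1578 CPM in chow control and 2889.5 in chow saline, Pdp2 55.4 and 86.3, and Pdp1 21.6 and 15.4. The groups overlapped for Pdk4 (538 to 2405 against 2142 to 3902 CPM) and Pdp2 (42.2 to 73.1 against 69.0 to 104.5). They did not overlap for Pdp1 (18.5 to 26.8 against 12.6 to 18.4). Injection, genotype background and cohort cannot be told apart in these baselines. The Pdk4 difference was lost without any 1 of 8 libraries, chow control replicates 3 and 5, chow C-3BO replicates 1, 2 and 4, chow saline replicate 1 and chow CL replicates 1 and 2 (adjusted p from 0.0527 to 0.0772).

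Across the 40 mice the subunits rose and fell together, with Pearson correlations of log2 CPM between 0.59 (Pdha1 with Pdhx) and 0.92 (Pdhb with Dlat) over their 6 pairs. Pdk1 went with Pdha1 (0.94). Pdp1 and Pdp2 ran against each other (-0.84 over all mice, -0.56 after group means were taken away). These are descriptions over mice that share groups and library composition. For Pdk4, the gene with the largest treatment change, the genes most alike over the 40 mice were Adra1a, the alpha-1A adrenergic receptor (Pearson r = 0.83), Kdm3a, a histone demethylase (0.72), Ehhadh, a peroxisomal enzyme of fatty acid oxidation (0.72), 6430573F11Rik (0.71) and Enc1 (0.71). For the other 9 genes the 5 closest genes had r between 0.62 (Pdk3) and 0.97 (Pdhx). Among those, chosen after their values were seen, were Slc25a1, the mitochondrial citrate carrier, and Tkt, a pentose phosphate enzyme, for both Pdk1 (0.94 and 0.93) and Pdha1 (0.94 and 0.94), and Pgd, another pentose phosphate enzyme, for both Pdhb (0.97) and Dlat (0.96).

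Related genes were described through 32 genes in 5 groups, all of which passed the filter. With CL 17 were higher and 2 lower on chow, and 18 higher and 0 lower on HFD. In C-3BO mice 11 were higher and 1 lower on chow, and 17 higher and 1 lower on HFD. On HFD against chow, 2 were higher and 10 lower in control mice, 6 and 9 in C-3BO mice, 0 and 9 in saline mice, and 2 and 8 in CL mice. The list is read against the same shares of all tested genes as above, and its median log2 fold change was 0.34, 0.43, 0.36 and 0.34 in the treatment contrasts and -0.08 to 0.02 in the diet contrasts. Of its 113 calls, none turned direction and 4 were lost with RLE factors, and none turned direction and 25 were lost under library totals. Under library totals the diet contrasts had 8 higher and 9 lower in control, 16 and 7 in C-3BO, 6 and 7 in saline, and 8 and 7 in CL mice.

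Of the 6 remaining parts and cofactor genes, 4, 4, 3 and 4 rose with CL on chow, CL on HFD, C-3BO on chow and C-3BO on HFD. Dld, the last enzyme of the complex, rose by 0.75, 0.66, 0.43 and 0.63 in that order (log2, edgeR adjusted p at most 0.000889). Lipt1, which transfers the lipoyl group that Dlat needs, rose by 0.95, 1.204, 0.99 and 0.96 (adjusted p at most 6.28e-06), and Lias, the lipoyl synthase, also rose in all 4 (by 0.28 to 0.48). Pdpr, the regulatory subunit of the phosphatase, was instead lower on HFD in all 4 diet contrasts, at -1.35, -1.50, -1.18 and -1.32 (edgeR adjusted p at most 0.00688), and was called in no treatment contrast.

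Of the 7 genes of related dehydrogenases, which share their architecture with the complex, 5, 5, 4 and 5 rose in the treatment contrasts. Ogdh and Dlst of the 2-oxoglutarate dehydrogenase and Bckdha and Dbt of the branched-chain dehydrogenase rose in all 4. Dbt, the core of the latter, rose by 0.77 (CL on chow), 0.72 (CL on HFD), 0.55 (C-3BO on chow) and 0.81 (C-3BO on HFD, edgeR adjusted p at most 0.00322). The branched-chain kinase Bckdk and phosphatase Ppm1k were called in no contrast. On HFD only Bckdhb was called, higher in C-3BO and CL mice (0.51 and 0.31), so no gene of this group was called lower with diet.

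Pyruvate supply and acetyl-CoA use carried most of the falls on HFD. Of 8 supply genes, 7, 5, 6 and 5 fell in control, C-3BO, saline and CL mice. Me1, the malic enzyme, had log2 fold changes of -2.80, -2.27, -2.49 and -1.61 (edgeR adjusted p at most 0.000219). Pkm (pyruvate kinase), Pcx (pyruvate carboxylase) and Mpc1 (a subunit of the mitochondrial pyruvate carrier) also fell in all 4. Of the 3 acetyl-CoA genes, Acly, which cleaves citrate for lipogenesis, fell in all 4 contrasts, at -2.70, -2.98, -2.09 and -2.45, and so did Slc25a1, at -1.88, -2.27, -1.87 and -2.08 (edgeR adjusted p at most 0.00157 for both). Citrate synthase (Cs) was called in no diet contrast. In the treatment contrasts 5, 6, 1 and 5 of the supply genes rose, among them Mpc2, the partner of Mpc1, by 0.98 with CL on HFD and 1.12 in C-3BO on HFD (edgeR adjusted p = 0.000111 and 6.95e-06).

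Of 8 transcriptional regulators linked to the kinase genes, 1, 2, 2 and 3 rose and 2, 0, 0 and 1 fell in the treatment contrasts. The order is CL on chow, CL on HFD, C-3BO on chow and C-3BO on HFD. Of all tested genes, 9.16%, 12.7%, 15.8% and 19.3% were higher and 6.13%, 10.8%, 15.9% and 15.5% lower in that order. Whether the counts differ from these shares was not tested. Hif1a rose with CL on HFD (0.42) and in C-3BO mice on chow (0.51) and HFD (0.71), and Nr3c1, the glucocorticoid receptor, rose in the same 3 contrasts by 0.25 to 0.33 (edgeR adjusted p at most 0.0469 for both). Under library totals all 3 calls of Nr3c1, and that of Hif1a with CL on HFD, were lost. Foxo1 fell with CL on chow (-0.51, edgeR adjusted p = 0.00115) and Ppara fell in C-3BO on HFD (-0.52, edgeR adjusted p = 0.0141). In control mice both were higher on HFD (0.53 and 0.75, edgeR adjusted p = 0.000227 and 0.000551). Pparg and Ppargc1a were called in no contrast.

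**Figure D5:**
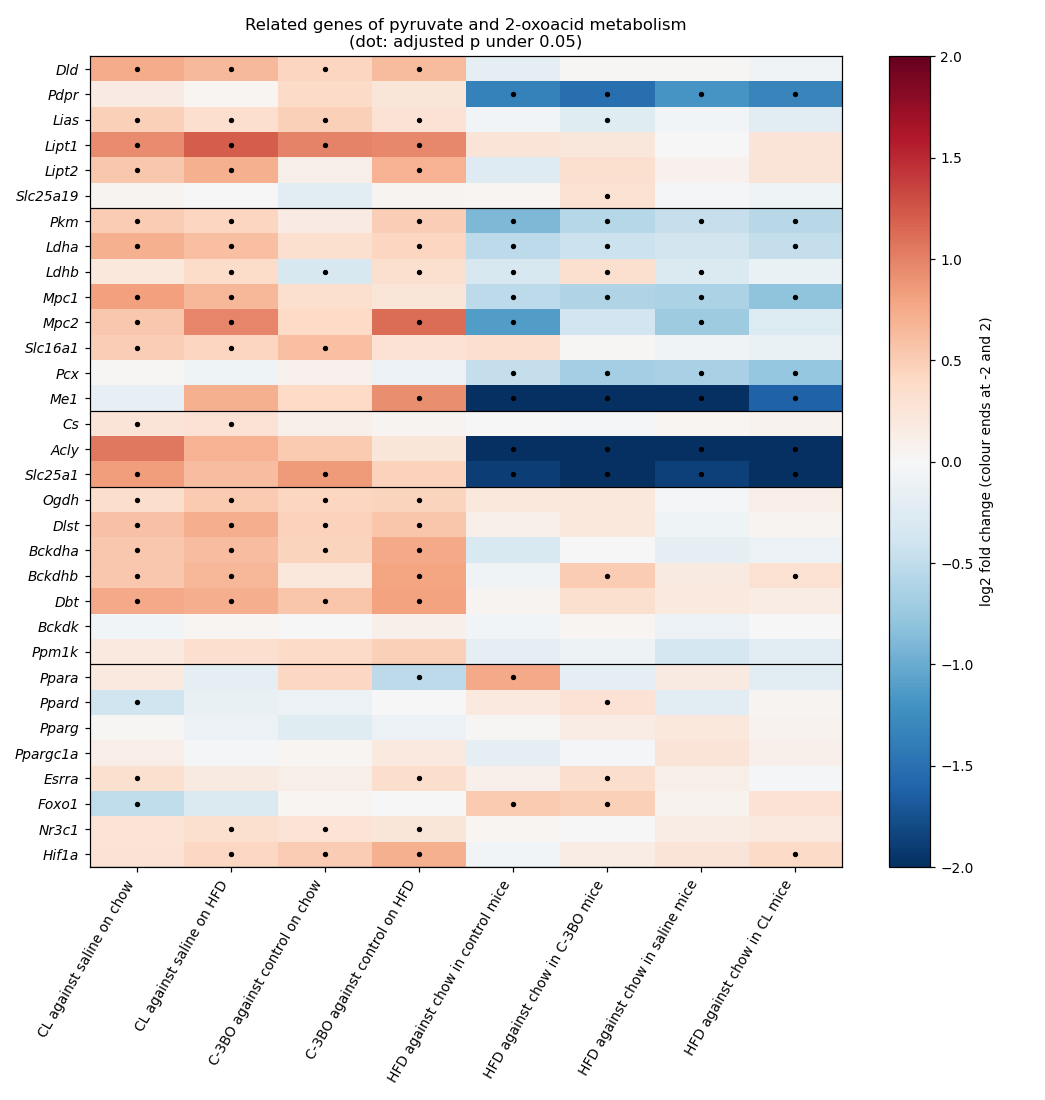
Log2 fold change (colour, ending at -2 and 2) of 32 related genes (lines, in 5 groups) in 8 contrasts (columns), with a dot where the edgeR adjusted p is under 0.05. Dld, Lias, Lipt1, Ogdh, Dlst, Bckdha and Dbt carry dots in all 4 treatment contrasts, and Pdpr, Pkm, Mpc1, Pcx, Me1, Acly and Slc25a1 in all 4 diet contrasts.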

How the data were processed

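The authors isolated poly(A) RNA from BAT, prepared TruSeq libraries, mapped reads to mm9 with STAR, processed them with HOMER and used iRNA-seq to count reads over the exons of RefSeq genes. Raw counts were deposited, without normalization. Strandedness and versions are not given in the sources used here. The file has 20295 genes and 40 libraries, whose groups come from the labels. No label ties mice to litters, so replicate numbers were not used in the model. The members and related lists were chosen with earlier results of these data known, and 1 gene of the related lists is not reported here.

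Genes passing filterByExpr (minimum count 10) in edgeR 4.0.16 were kept (13277). With TMM factors and 1 coefficient for each group, the quasi-likelihood model was fitted to all 40 libraries under R 4.3.3. The study tested with DESeq2, used here (1.42.0) as an alternative. p-values were adjusted by Benjamini-Hochberg over all tested genes of a contrast, and a gene was called at 0.05. A standard error is the log2 fold change divided by the square root of F, intervals are 95%, and CPM use TMM-scaled library totals. Where nothing shows that mice came from separate litters, p-values measure the spread between these samples. Counting limits (3 counts) cover counting error only. Replicates of a group differed by more than sampling noise. Correlations used log2 CPM with prior count 2, and the named genes were all members, the largest called changes of the related lists, and the 5 genes closest to the member with the largest treatment change. The edgeR and DESeq2 steps were tested on simulated data. Alternatives were RLE factors, library totals, no filter, DESeq2, the libraries of a contrast alone, a replicate block, a muscle covariate, and leaving out libraries. Figures were drawn with matplotlib 3.10.9.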

Additional observations from a re-analysis of the deposited data

Results flagged for a closer look

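In 8 of 80 sets of 5 mice (10 genes in 8 groups), the highest or lowest mouse lay far from the other 4 by Dixon's criterion, which chance gives in about 1 set in 20, or 4 sets. HFD control replicate 4 met the criterion as the highest of its group for 3 subunits. It was also the highest for Pdhx (209 CPM), which did not meet the criterion. Pdha1 was 2103 CPM there against 1498 to 1651 in the other 4 mice, Pdhb was 663 CPM against 309 to 369.7, and Dlat was 1019 CPM against 624 to 723. Pdhb was also high in HFD C-3BO replicate 4, at 839 CPM against 668 to 681, in 1 of the 2 libraries with the most liver transcripts. Pdha1 was 3078 CPM in chow C-3BO replicate 3 against 2550 to 2688, and Pdhx was 149.7 CPM in HFD saline replicate 5 against 117 to 126. Pdk3 was 2.84 CPM in chow control replicate 2 against 1.01 to 1.49. Pdk4 was low in chow C-3BO replicate 5, at 1978 CPM against 3984 to 4705 in the other 4 mice.

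The effects of C-3BO and CL on chow differed in the edgeR test for 3 genes. Subtracting CL from C-3BO gave effects of 1.38 for Pdk4, 0.99 for Pdp2 and -0.82 for Pdp1 on the log2 scale (edgeR adjusted p = 0.0383, 0.00838 and 0.0131).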

How the results depend on the processing

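Of 83 values followed (a gene in a contrast), 46 kept their direction and their side of the threshold under all alternatives. With CL on chow, the count of changed genes went from 5 to 3 under library totals, without the filter, and in the libraries of the contrast alone, each time by the loss of Pdhb and Dlat, and was 3 to 5 when 1 library was left out. With CL on HFD it went from 8 to 5 under library totals (Pdk2, Dlat and Pdha1 lost) and was 5 to 8 with 1 library left out. On HFD in C-3BO mice it went from 3 to 5 under library totals (Pdk2 at 0.24 and Pdp2 at 0.47 added). On HFD in CL mice it went from 2 to 4 in the libraries of the contrast alone (Pdhb and Dlat added). Where only the libraries of a contrast were fitted, fewer samples estimated the spread. The cause of these changes was not tested in any setting. With 1 library left out the other counts were 5 to 6 (C-3BO on chow), 5 to 7 (C-3BO on HFD), 5 to 6 (HFD in control), 3 to 4 (HFD in C-3BO), 5 to 6 (HFD in saline), 2 (HFD in CL) and 2 to 3 (C-3BO minus CL on chow). The low-total libraries HFD C-3BO 4 and 5 left 5 of 6 calls in that contrast when removed.

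The values that changed sign were all uncalled. Under library totals they were Pdha1 at -0.0924 (C-3BO on chow) and -0.13 (C-3BO on HFD), Pdhx at 0.0461 (HFD in C-3BO), Pdk2 at -0.14 and -0.00658 (C-3BO on chow and HFD) and at 0.11, 0.00501 and 0.14 (HFD in control, saline and CL), Pdk3 at 0.0346 (HFD in C-3BO), Pdp1 at -0.12 and Pdp2 at -0.0494 (CL on chow), and Pdp2 at 0.13 (HFD in CL). Without both low-total libraries they were Pdha1 at -0.0499 (C-3BO on HFD), Pdk2 at -0.0447 and Pdk3 at 0.20 (HFD in C-3BO). With the muscle covariate they were Pdk2 at 0.10 and Pdk3 at -0.11 (HFD in control) and Pdp1 at -0.0233 (CL on chow). With 1 library left out, Pdha1 ranged from -0.0341 to 0.13 (C-3BO on HFD), Pdk2 from -0.0869 to 0.0247, -0.00876 to 0.11 and -0.0557 to 0.0227 (HFD in control, C-3BO and CL), Pdk3 from -0.20 to 0.22 (CL on HFD) and -0.43 to 0.0401 (C-3BO on chow), Pdk4 from -0.29 to 0.10 and -0.20 to 0.0258 (CL on chow and HFD), Pdp1 from -0.0433 to 0.0921 (CL on chow), and Pdp2 from -0.0781 to 0.18 (CL on chow) and -0.11 to 0.15 (HFD in CL).

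Replicate numbers were not used to pair the mice, since no label gives a pairing. Of 40 pairs of same-numbered mice in contrasted groups, 8 had deviations correlated over 0.1 (range -0.376 to 0.444). In all, 11 mice were closest to their own number. In C-3BO against control these were replicates 1, 3 and 5 on chow and 1, 4 and 5 on HFD (correlations 0.0659 to 0.444). The other mice of these contrasts were not, and whether the numbers reflect a pairing there was not tested. With the replicate block, HFD in CL mice had 3 calls in place of 2 (Pdhb -0.51, edgeR adjusted p = 0.0316), and the other 11 counts of calls were unchanged at 5 and 8 for CL, 5 and 6 for C-3BO, 6, 3 and 5 for HFD in control, C-3BO and saline, and 0, 0, 3 and 0 for the differences of effects. Depth limits Pdk3 most. The library of HFD saline replicate 4 had 849126 counts, and without it Pdha1 (0.26, adjusted p = 0.11) and Dlat (0.34, adjusted p = 0.0743) lost their calls with CL on HFD.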
